A study of Mus musculus with 8 samples.

Results

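The sodium and calcium pump genes described here were 7 genes of the P-type ATPase superfamily and its accessory subunits, chosen by name: Atp1b1 and Atp1b2, which encode beta subunits of the sodium-potassium pump, Atp2a2, which encodes the calcium pump of the endoplasmic reticulum (SERCA2), and Atp2b1, Atp2b2, Atp2b3 and Atp2b4, which encode the plasma membrane calcium pumps (PMCA1 to PMCA4). All 7 were among the 22430 genes of the count table and all 7 passed the filter on low counts, together with 16730 genes in all. RNA was extracted from dissected hemispheres, labelled whole brain, of male C57Bl/6JRj mice for which the labels name no transgene or treatment. The ages were 6 months (6m, 4 young adult mice) and 24 months (24m, 4 aged mice), and each mouse gave 1 library. The comparison asked how mRNA abundance differs between the 2 ages, and for these genes how the isoforms of neurons compare with those of glia.

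P-type pumps move ions against their gradients with energy from ATP, passing through an intermediate in which an aspartate of the pump itself carries the phosphate. The sodium-potassium pump joins a catalytic alpha subunit to a beta subunit that brings it to the cell surface, and in brain the beta1 gene (Atp1b1) is known for its expression in neurons, whereas beta2 (Atp1b2) is known from astrocytes. Calcium that enters a neuron is returned to the endoplasmic reticulum by SERCA pumps and expelled across the plasma membrane by PMCA pumps and sodium-calcium exchangers. PMCA1 and PMCA4 occur in many tissues, while PMCA2 and PMCA3 are concentrated in neurons, with PMCA2 abundant in the cerebellum.

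The stretch around the phosphorylated aspartate is what the calcium pumps have in common, and it is shown for 4 of them to make the family relation visible. Each sequence below is coding sequence read from the GRCm39 genome along the gene's own strand, 5′ to 3′, in the canonical transcript of GENCODE M39, with the aspartate codon in capitals. All 4 stretches lie within a single coding exon.
Atp2a2: tgctcaGATaagacaggcacacttacc
Atp2b1: tgttcaGATaaaacaggaaccctgacg
Atp2b2: tgctcaGACaagacaggaacgctgacc
Atp2b4: tgctccGATaagacaggcacactgacc

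The site of Atp2a2 lay at chr5:122607437-122607463 in exon 8 and encoded aspartate 351. That of Atp2b1 lay at chr10:98835673-98835699 in exon 10 (aspartate 475), that of Atp2b2 at chr6:113766858-113766884 in exon 9 (aspartate 454) and that of Atp2b4 at chr1:133659545-133659571 in exon 10 (aspartate 466). Of the 27 bases, Atp2b2 had 22 and Atp2b4 and Atp2a2 had 21 in common with Atp2b1. The beta subunit genes Atp1b1 and Atp1b2 held no such site, since they encode no catalytic chain. Over the whole coding sequences the 4 PMCA genes were 72.0 to 78.3% identical in pairs, and their longest exact shared run was 56 bases, between Atp2b2 and Atp2b3. How the authors treated reads with several alignments was not given in the sources used here.

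Library totals were 63460940 to 103462414 counts. The deepest library, 24m replicate 1, stood apart, as its mean Spearman rho was 0.979 with the other 24m libraries and 0.978 with those of 6m. Without it the log2 fold changes of the results below were 0.50 for Atp1b1, 0.78 for Atp1b2, 1.42 for Atp2a2, -1.11 for Atp2b1, 2.42 for Atp2b2, 1.72 for Atp2b3 and 3.59 for Atp2b4, and no call changed.

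All 7 genes differed between the ages at the adjusted p threshold of 0.05, and in all 7 the 4 libraries of one age lay wholly above the 4 of the other. Abundance is given as counts per 1e+06 (CPM) on totals scaled with the trimmed mean of M values (TMM), and a gene was called at an adjusted p of at most 0.05 together with a log2 fold change of at least 0.58 in size. By this rule Atp1b2, Atp2a2, Atp2b2, Atp2b3 and Atp2b4 rose at 24m, Atp2b1 fell, and Atp1b1 passed the adjusted p only. Against the background of all genes tested, where 43.6% were called, 25.3% higher and 18.3% lower, and 62.6% passed the adjusted p alone, 5 of the 7 were called higher and 1 lower. Ages did not overlap in 55.2% of all genes. The median log2 fold change of the 7 genes was 1.22, beside -0.0034 over all genes tested. The 7 genes were chosen with earlier results of these data known, so these contrasts with the background are description and not a test. These are whole-tissue RNA values, in which fewer cells of a type and less RNA per cell cannot be told apart.

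**Figure D1:**
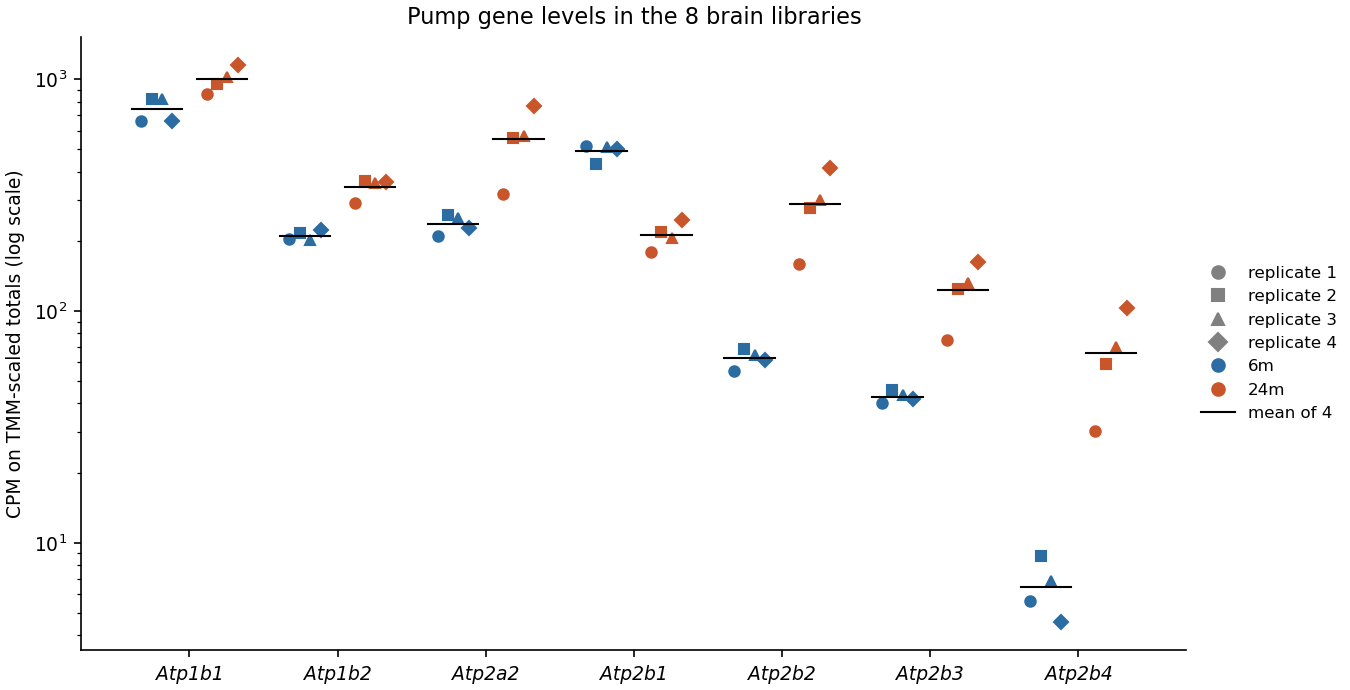
CPM of each pump gene (log axis, TMM-scaled totals) in the 4 libraries of 6m (blue) and of 24m (orange), with marker shapes for replicates 1 to 4 and a bar at each mean. Atp2b1 is the only gene whose 24m libraries sit below those of 6m, Atp2b4 shows the widest gap, and 24m replicate 1 is the 24m library nearest to 6m in each gene but Atp2b1.

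The beta subunit genes of the sodium-potassium pump were both more abundant at 24m, with smaller fold changes than the calcium pump genes that rose. Atp1b1 (ENSMUSG00000026576, chr1:164264678-164285957, minus strand, GRCm39), the beta subunit known from neurons, had 659.9, 825, 823 and 662 CPM in replicates 1 to 4 of 6m and 861, 953, 1027 and 1157 CPM in the same order at 24m. The lowest 24m library exceeded the highest 6m library by a small margin, and the 6m libraries fell into a pair of higher and a pair of lower values. Mean abundance was 742 ± 94.4 CPM at 6m and 999.5 ± 125 CPM at 24m (SD, n = 4 each), which on the log2 scale is 0.43 ± 0.12 (SE, adjusted p = 0.0127) and lies under the fold threshold. With library totals in place of TMM factors the same difference was 0.65 and was called.

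Atp1b2 (ENSMUSG00000041329, chr11:69487651-69496851, minus strand), the beta subunit known as an adhesion molecule on glia, had 204, 218, 202 and 223 CPM in replicates 1 to 4 of 6m. At 24m it had 293, 364, 358 and 360.2 CPM, so that replicate 1 lay below 3 closely spaced libraries and still above every 6m library. The mean went from 212 ± 10.6 to 344 ± 34.0 CPM, 1.62-fold (log2 fold change 0.70 ± 0.09, adjusted p = 0.000231). Once a trend of counts over exonic length was removed within each library, the log2 fold change was 0.52 (adjusted p = 0.00052) and no longer reached the fold threshold.

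Whether the glial beta subunit moved more than the neuronal beta subunit was tested within libraries, where scaling has no part. The log2 ratio of Atp1b2 to Atp1b1 was -1.69, -1.92, -2.03 and -1.57 in 6m and -1.56, -1.39, -1.52 and -1.68 in 24m. The ages overlapped, and the mean difference of 0.27 missed the threshold (exact permutation over 70 assignments, two-sided, p = 0.0571, adjusted over 7 ratios p = 0.0571). Without 6m replicate 4 the difference was 0.34 (exact permutation, adjusted p = 0.0333), and without 6m replicate 3 it was 0.19.

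Atp2a2 (ENSMUSG00000029467, chr5:122591575-122640903, minus strand), which refills the endoplasmic reticulum with calcium, rose 2.33-fold. It had 210.3, 260.1, 253 and 227 CPM in replicates 1 to 4 of 6m and 319, 556, 569.9 and 771 CPM in those of 24m. The 24m libraries were spread widely, from a value not far above 6m in replicate 1 to more than 3 times the lowest 6m library in replicate 4. The log2 fold change was 1.22 ± 0.22 (adjusted p = 0.00122). It was 0.73 after removal of the length trend (adjusted p = 0.00155), which kept the call.

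Among the plasma membrane calcium pumps, Atp2b1 went against the other 3. Atp2b1 (ENSMUSG00000019943, chr10:98750268-98862488, plus strand), the PMCA found in nearly all cells, had 518, 429, 511 and 499 CPM in the 6m libraries, in replicate order, and 179, 219.5, 207 and 247 CPM in the 24m libraries. It fell from 489 ± 40.9 to 213 ± 28.0 CPM, 2.29-fold (log2 fold change -1.20 ± 0.11, adjusted p = 5.11e-05). The highest 24m library stayed well under the lowest 6m library. In each of the alternative fits the gene remained called lower, with log2 fold changes from -1.77 after removal of the length trend to -0.92 after quantile normalization with DESeq2.

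Atp2b2 (ENSMUSG00000030302, chr6:113720766-114021022, minus strand), which clears calcium rapidly in Purkinje cells and hair cells, rose 4.62-fold. Its libraries gave 55.0, 68.5, 64.7 and 61.6 CPM at 6m and 159.7, 279.7, 301 and 415 CPM at 24m, in replicate order. The lowest 24m value was above all 6m values although it lay far under the other 24m libraries. The log2 fold change was 2.21 ± 0.24 (adjusted p = 9.94e-05).

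Atp2b3 (ENSMUSG00000031376, chrX:72546384-72614614, plus strand), a PMCA of neurons, rose 2.90-fold. It had 39.9, 45.5, 43.2 and 41.6 CPM at 6m, in replicate order, and 75.2, 124, 132 and 162 CPM at 24m. The 6m libraries were close together, and again replicate 1 was the lowest of 24m. The log2 fold change was 1.54 ± 0.20 (adjusted p = 0.000204).

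Atp2b4 (ENSMUSG00000026463, chr1:133627195-133728923, minus strand), the scarcest of the 7 genes at both ages, changed the most. It had 5.61, 8.81, 6.85 and 4.54 CPM in replicates 1 to 4 of 6m, resting on 368, 623, 413 and 300 counts, and 30.5, 59.2, 69.9 and 102.7 CPM in those of 24m. The increase was 10.2-fold (log2 fold change 3.34 ± 0.36, adjusted p = 8.54e-05), at percentile 99.9 of all genes tested. Without 24m replicate 1 the log2 fold change was 3.59, and without 24m replicate 4 it was 3.04.

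Ratios within libraries gave the same contrast among calcium pumps without any scaling between libraries. The log2 ratio of Atp2b2 to Atp2b1 was -3.24, -2.65, -2.98 and -3.02 in 6m and -0.16, 0.35, 0.54 and 0.75 in 24m, so Atp2b2 exceeded Atp2b1 in 3 of the 4 aged libraries and in none of the young ones. The difference was 3.34 on the log2 scale (exact permutation p = 0.0286, which is the smallest p for 4 against 4 libraries, adjusted p = 0.04). Atp2b3 against Atp2b1 went from -3.52 ± 0.20 to -0.83 ± 0.30 and Atp2b4 against Atp2b1 from -6.28 ± 0.51 to -1.82 ± 0.55, both without overlap (exact permutation p = 0.0286, adjusted p = 0.04 for each). Atp2a2, the store pump, went from -1.04 ± 0.24 to 1.32 ± 0.35 against Atp2b1, likewise without overlap (exact permutation p = 0.0286, adjusted p = 0.04). These ratios share Atp2b1 as denominator and are not independent of each other. Between the PMCA genes of neurons, Atp2b3 lost ground to Atp2b2, from -0.55 ± 0.06 to -1.20 ± 0.11, a difference of -0.65 (exact permutation p = 0.0286, adjusted p = 0.04) that shrank to -0.26 after removal of the length trend.

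**Figure D2:**
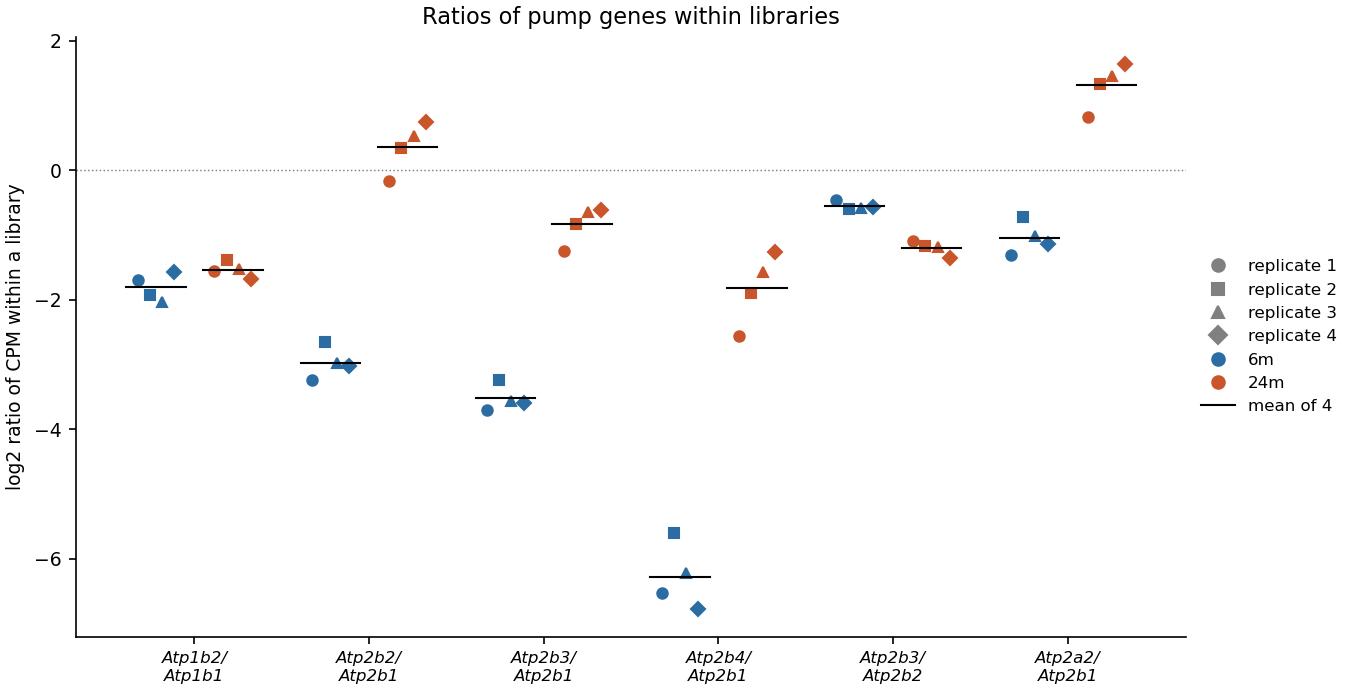
Log2 ratio of CPM of gene pairs within each library, 4 of 6m (blue) and 4 of 24m (orange), with a bar at the mean of each age and marker shapes for replicates. The 5 ratios among calcium pumps are separated between the ages, whereas the ratio of the glial over the neuronal sodium pump gene overlaps.

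Divided by exonic length, the levels can be compared between genes only roughly. This length is the union of all exons annotated for a gene, which can exceed the length of the mRNA present. The order of genes and the shares of the PMCA genes below depend on it. In CPM per kb, the order at 6m was Atp1b1 (153 ± 19.5), Atp1b2 (31.5 ± 1.57), Atp2b1 (29.5 ± 2.46), Atp2a2 (19.4 ± 1.88), Atp2b3 (6.64 ± 0.37), Atp2b2 (3.96 ± 0.36) and Atp2b4 (0.52 ± 0.15), in which the ranges of the neighbours Atp1b2 and Atp2b1 overlapped. At 24m the order in CPM per kb was Atp1b1 (206 ± 25.8), Atp1b2 (51.2 ± 5.07), Atp2a2 (45.3 ± 15.1), Atp2b3 (19.3 ± 5.64), Atp2b2 (18.3 ± 6.63), Atp2b1 (12.8 ± 1.69) and Atp2b4 (5.29 ± 2.41). There the ranges of Atp1b2 and Atp2a2 overlapped, as did those of Atp2b3 with Atp2b2 and of Atp2b2 with Atp2b1.

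As shares of the summed CPM per kb of the 4 PMCA genes, Atp2b1 took 75.4, 68.0, 73.0 and 73.6% of the 6m libraries, in replicate order, and 30.7, 24.0, 21.6 and 19.9% of the 24m libraries. The other 3 genes had larger shares at 24m. Atp2b2 went from 9.78 ± 1.24% to 32.3 ± 2.63%, Atp2b3 from 16.4 ± 1.57% to 34.5 ± 1.06% and Atp2b4 from 1.29 ± 0.42% to 9.13 ± 1.72% (exact permutation p = 0.0286 for each of the 4 shares, which sum to a whole and are not independent). The sum itself was 41.4, 38.0, 42.2 and 40.8 CPM per kb in 6m and 35.1, 55.1, 57.9 and 74.7 in 24m. Replicate 1 of 24m was below all 6m libraries and the other 3 above all of them, so the total did not separate the ages (exact permutation p = 0.143), whereas each of the shares did.

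**Figure D3:**
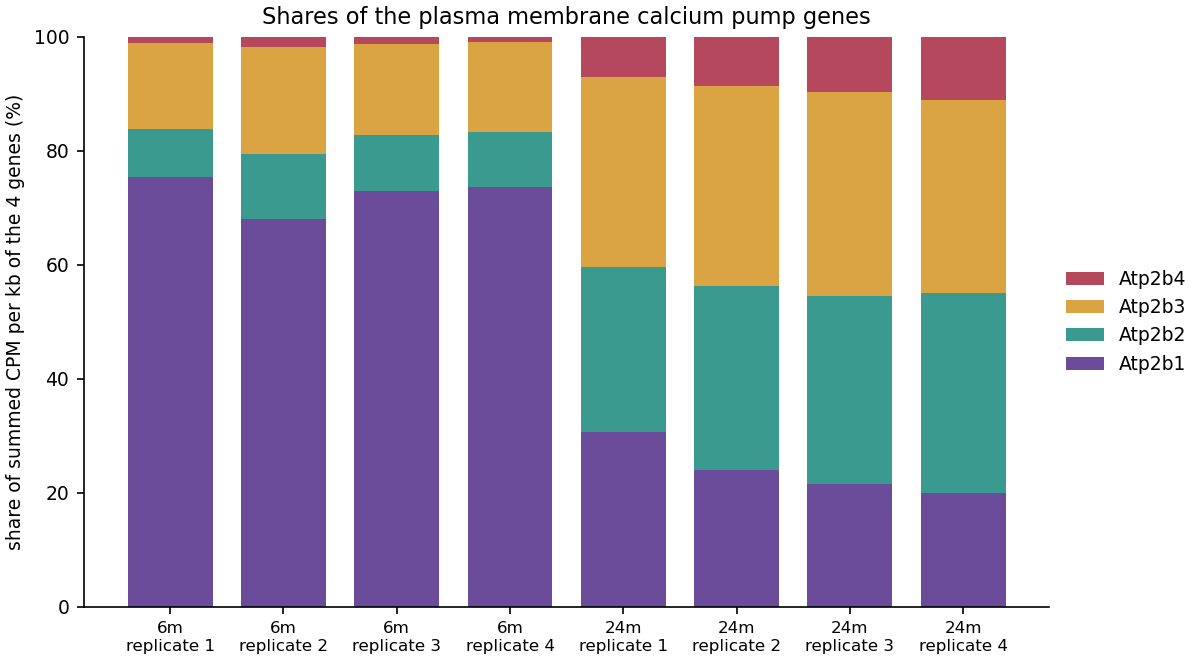
Stacked bars, each summing to 100%, of the shares of Atp2b1, Atp2b2, Atp2b3 and Atp2b4 in their summed CPM per kb of exonic length, 1 bar per library. Atp2b1 makes up 68.0 to 75.4% of the bars of 6m and 19.9 to 30.7% of those of 24m, where Atp2b2 and Atp2b3 are both larger than Atp2b1 in replicates 2 to 4, and Atp2b1 still exceeds Atp2b2 in replicate 1.

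Promoter sequence is shown for the PMCA genes that moved furthest in opposite directions, Atp2b1 and Atp2b4. The RefSeq table for GRCm38.p6, an earlier assembly than that of the counts, held promoters of 300 bases for 4 of the 7 genes (Atp1b1, Atp2b1, Atp2b2 and Atp2b4). It gives 2 entries for Atp2b1, of which the first is printed, and 1 for Atp2b4. Capitals mark the GC box, GGGCGG or its complement CCGCCC.
Atp2b1, chr10:98914392-98914691, plus strand: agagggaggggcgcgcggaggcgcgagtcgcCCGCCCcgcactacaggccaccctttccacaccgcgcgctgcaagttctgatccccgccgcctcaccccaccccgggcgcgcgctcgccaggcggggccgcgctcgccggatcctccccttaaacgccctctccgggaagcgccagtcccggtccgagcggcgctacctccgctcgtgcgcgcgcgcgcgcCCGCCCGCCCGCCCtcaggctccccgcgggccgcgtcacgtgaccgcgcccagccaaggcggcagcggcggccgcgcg
Atp2b4, chr1:133753698-133753997, minus strand: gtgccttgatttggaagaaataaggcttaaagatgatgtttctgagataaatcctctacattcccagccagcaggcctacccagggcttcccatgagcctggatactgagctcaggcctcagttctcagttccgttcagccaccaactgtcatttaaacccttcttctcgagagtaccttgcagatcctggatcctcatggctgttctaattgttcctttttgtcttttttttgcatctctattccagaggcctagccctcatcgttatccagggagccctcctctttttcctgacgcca

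The Atp2b1 stretch was 79.3% G and C with 54 CpG pairs, and held 4 GC boxes, 3 of them overlapping in a single run. The Atp2b4 stretch was 47.7% G and C with 4 CpG pairs and held no GC box. Over the 32851 promoters of this length in the table, the median was 52.7% G and C and 7 CpG pairs, and 35.7% held a GC box. Neither stretch held TATAAA (13.6% of all promoters) or CCAAT (37.4%) on either strand, and CACGTG, which reads the same on both strands (7.15% of all promoters), occurred once in that of Atp2b1. The other entry for Atp2b1 was likewise 79.3% G and C, with 45 CpG pairs and 3 GC boxes. The entries for Atp2b2 and Atp1b1 did not all follow this contrast. The first of 3 entries for Atp2b2, which rose, was 72.7% G and C with 27 CpG pairs and 3 GC boxes, its other entries were 54.0% and 58.7% G and C, and the entry for Atp1b1 was 71.0% with 2 GC boxes. These matches describe the letters of these windows only.

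Features that move with age in these libraries lie beside the results above. Counts on mitochondrially encoded genes took 5.26 to 6.52% at 6m and 3.18 to 3.69% at 24m. With log2 CPM centred on each gene's mean over the 8 libraries, the slope over exonic length, per doubling of length, was -0.20 to -0.11 at 6m and -0.042 to 0.29 at 24m, with 24m replicate 1 at -0.042 (exact permutation p = 0.0286). Centring makes the 8 slopes sum to 0, so they rank the libraries against each other and their signs say nothing of a library alone. Within 24m, Atp1b1, Atp2a2, Atp2b2, Atp2b3 and Atp2b4 followed the exact order of this slope from library to library, and Atp1b2 and Atp2b1 did not. Within 6m, Atp2b4 followed that exact order and the other 6 genes did not. A swap of neighbouring libraries was enough to break an exact order. In Atp1b1 and Atp2a2 only 6m replicates 1 and 4 were swapped (Atp1b1 at 659.9 and 662 CPM). In Atp2b1 only 24m replicates 2 and 3 were swapped, with slopes of 0.185 and 0.187. The part of RNA quality or of library structure in the age differences was not tested beyond the fits with the length trend or the GC trend removed.

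Long genes as a group were higher at 24m. With all tested genes divided into 10 bins by exonic length, in the bin of the longest, 12374 bases or more, the median log2 fold change was 0.52, with 46.6% called higher and 7.08% lower. Of the pump genes, Atp2b1 (16593 bases), Atp2b2 (15790.0 bases) and Atp2b4 (12392 bases) fell in this bin, at percentiles 1.32, 95.3 and 99.9 of its fold changes. Atp2b1 thus ranked among the 22 lowest of 1667 long genes, and Atp2b4 among the 3 highest. Atp2a2 (12239 bases) was at percentile 79.3 of its own bin, Atp1b2 (6713 bases) and Atp2b3 (6412 bases) at 76.5 and 93.8 of theirs, and Atp1b1 (4849 bases) at 72.2. After removal of the length trend Atp2b2 had a log2 fold change of 1.61, Atp2b3 of 1.37 and Atp2b4 of 2.84, each still called.

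**Figure D4:**
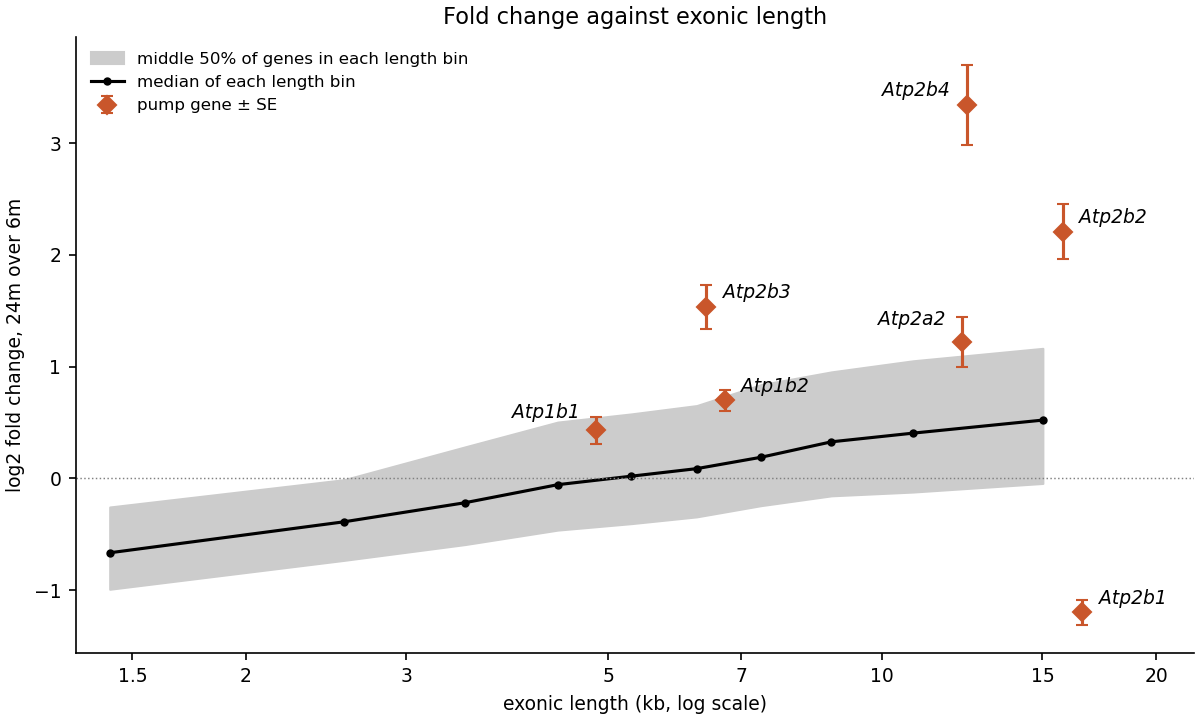
Log2 fold change (24m over 6m) against exonic length in kb (log axis), with the median of each length bin of all tested genes (line), the middle 50% of each bin (grey) and the pump genes with their SE (orange). The line rises from short to long genes, and Atp2b1 lies under and Atp2b4 above the grey band at a similar length.

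Other genes of the sodium pump, listed as subunits and regulators, were more often called lower than higher. Of 13 tested, 2 rose and 7 fell, and the median log2 fold change was -0.75 beside -0.0034 over all genes, of which 25.3% were called higher and 18.3% lower. Fxyd4, a small membrane protein that tunes the pump, had the lowest value (-1.60 ± 0.37, adjusted p = 0.00427) at 0.54 and 0.18 CPM. Nkain2, which interacts with the beta subunit, had the highest (1.35 ± 0.22, adjusted p = 0.00068), from 3.92 ± 0.92 to 10.01 ± 2.42 CPM. The beta subunit gene Atp1b4 had 0 counts in all libraries and was not tested.

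Of 13 other calcium pumps and regulators tested, 2 rose and 4 fell (median -0.43), a share called near the 43.6% of all genes. Atp2a3, the SERCA3 gene, rose from 26.9 ± 5.96 to 61.2 ± 8.12 CPM (1.19 ± 0.17, adjusted p = 0.000318). Strit1, which encodes the SERCA activating micropeptide DWORF, fell (-1.37 ± 0.41, adjusted p = 0.0152) at under 1 CPM in all libraries, and the fall missed the threshold without 6m replicate 1 (-1.14, adjusted p = 0.0503) and after removal of the length trend (-0.42, adjusted p = 0.426). The sodium-calcium exchangers, which include exchangers of intracellular membranes such as the mitochondrial Slc8b1, had 6 of 9 genes called higher and 1 lower (median 1.03, against 25.3% and 18.3% of all genes), from Slc24a5, an exchanger of pigment cells (-1.04 ± 0.12, adjusted p = 0.000128), to Slc24a2, an exchanger of neurons and cone photoreceptors (1.76 ± 0.31, adjusted p = 0.000941). Of 11 genes of store release and entry, 5 rose and 1 fell (median 0.54), where 25.3% of all genes were called higher and 18.3% lower. Itpr1, the inositol trisphosphate receptor that releases the calcium which SERCA2 takes up, went from 187 ± 23.9 to 564 ± 193 CPM (1.59 ± 0.24, adjusted p = 0.000422). Ryr1, a ryanodine receptor, went from 31.9 ± 3.87 to 17.8 ± 1.75 CPM (-0.84 ± 0.11, adjusted p = 0.000259). Slc24a2 (15556 bases), Itpr1 (18328 bases) and Ryr1 (21829 bases) lay in the bin of the longest genes, where 46.6% were called higher and 7.08% lower. The part of exonic length in these list counts was not tested.

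**Figure D5:**
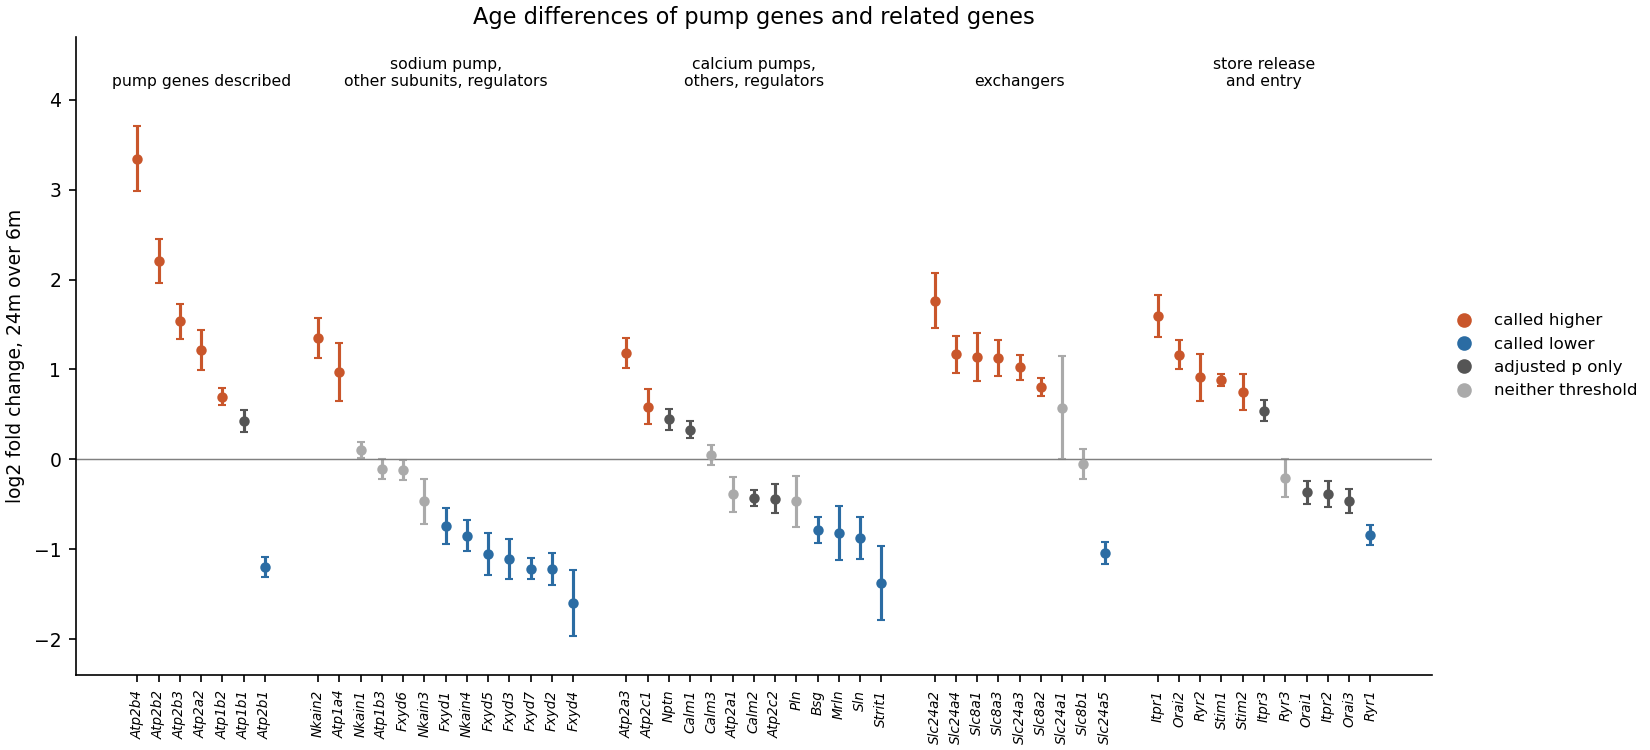
Log2 fold change (24m over 6m) with SE of the 7 pump genes and of 4 lists of related genes, ordered within each list, coloured by call. In the exchanger and store lists more genes lie above 0 than below, and the reverse holds for the lists of other pump subunits and regulators.

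Markers of the cell types in which these isoforms are known were counted in the same fit, where 25.3% of all genes were called higher and 18.3% lower, and all markers on these lists passed the count filter. The share called was above the 43.6% of all genes in the astrocyte and granule cell lists and below it in the neuronal and Purkinje cell lists. Of 10 astrocyte markers 6 were called higher and 1 lower, and their mean log2 CPM ranged from 6.06 to 6.16 at 6m and from 6.59 to 6.92 at 24m. S100b, a calcium-binding protein, was the lowest (-1.29 ± 0.18, adjusted p = 0.000323) and Aqp4, the water channel of astrocyte endfeet, the highest (1.92 ± 0.22, adjusted p = 0.000112). Of 12 neuronal markers 2 rose and 1 fell, with means of 8.25 to 8.41 at 6m and 8.44 to 8.84 at 24m, between Tubb3, a tubulin of neurons (-0.63 ± 0.14, adjusted p = 0.00393), and Map2, a microtubule protein of dendrites (3.09 ± 0.44, adjusted p = 0.000339). The call of Tubb3 was lost after quantile normalization with DESeq2 (-0.31), with library totals (-0.42), without 24m replicate 4 (-0.55) and with the length trend (-0.41) or the GC trend (-0.54) removed. Of 5 markers of cerebellar granule cells 4 rose and none fell, with means of 4.28 to 4.97 and 5.28 to 5.56, the highest being Cbln3 (1.69 ± 0.17, adjusted p = 6.49e-05) and the lowest Cbln1 (0.25 ± 0.19, adjusted p = 0.271). Of 3 Purkinje cell markers 1 rose and none fell, with overlapping means of 6.297 to 6.997 and 6.542 to 7.103, from Pcp2 (-0.53 ± 0.32, adjusted p = 0.166) to Car8 (0.62 ± 0.16, adjusted p = 0.00793). The call of Car8 was lost when the 24m library of replicate 1 (0.55) or a 6m library, either replicate 3 (0.52) or replicate 4 (0.55), was left out, and after removal of the length trend (0.13) or the GC trend (0.37), and Pcp2 was called lower without 24m replicate 1 (-0.89) and under the replicate number as a block (-0.58). How far the amount of cerebellum, of astrocytes or of neurons in a sample enters the age differences of Atp1b2, Atp2b2 and Atp2b3 was not tested.

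Genes whose levels followed each pump gene most closely over the 8 libraries were found by the root mean square (RMS) difference of log2 CPM centred on each gene's mean, among the 8999 genes that averaged at least 10 CPM. For Atp1b1 the nearest was Nptn, which encodes neuroplastin, at an RMS difference of 0.035, followed by Cldnd1 and Ube2g1. For Atp1b2 it was Mgrn1 at 0.033, followed by the adenosine receptor gene Adora1 and by Cadm3. Atp2a2 was nearest to Enah (0.052), then Zfp236 and Kif13a, and Atp2b3 to Dgkg (0.046), then Lrp4 and Kif21b. Atp2b2 was nearest to Paqr8 (0.071), then Cdk19 and Kbtbd11, and Atp2b4 to Uhmk1 (0.13), then Ddx6 and Prickle2. For Atp2b1, the gene that fell, the nearest were Rgs7bp (0.064), Tcf4 and Rtf1. Among the pump genes themselves, the closest pair was Atp2a2 and Atp2b3 at 0.17 and the most distant was Atp2b1 and Atp2b4 at 2.28.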

How the data were processed

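Counts per gene were deposited for 8 libraries of polyadenylated RNA, prepared with a directional kit and read as paired ends. The authors trimmed reads with Trim Galore 0.4.11, aligned them to GRCm39 with HISAT2 2.1.0 and made the counts with featureCounts. The values are whole-number counts before normalization. Use of strand was not given in the sources used here, so reads that Atp1b1 shares with Nme7 (587 exonic bases) and Atp2a2 with Anapc7 (112) may be misassigned.

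The 16730 genes that exceeded 5 counts in 4 or more libraries were tested in R 4.3.3 with edgeR 4.0.16 (quasi-likelihood test, TMM factors, a single term for age), with Benjamini-Hochberg adjustment over all of them. Thresholds followed the study. Log2 values used a prior count of 2. Positions and exonic lengths, the union of all annotated exons of a gene, came from GENCODE M39 (22281 of 22430 genes matched). Ratios and shares were compared by exact two-sided permutation of 8 libraries, with the ratios adjusted over all 7 computed. A ratio, a sequence and some genes of the lists are not reported here, and the list counts leave those genes out. The samples are separate animals. Members and lists were chosen with earlier results of these data known. All members, the tested gene with the highest and the lowest fold change of each list, and the 3 genes nearest each member are named. Alternatives were other scalings, DESeq2 1.42.0, limma 3.58.1 (voom), other filters, each library left out, the replicate number as a block, and length or GC trends removed. On simulated data over 16730 genes, 80% of 200 genes given a log2 change of 1 were found and 12 unchanged genes were called. The simulation gave all genes the same spread between libraries and held no length trend and no deviating library. These rates therefore do not carry over to the measured libraries, where 43.6% of genes were called.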

Additional observations from a re-analysis of the deposited data

Results flagged for a closer look

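The abundance of Atp1b2 in 24m replicate 1 was 293 CPM, below the other 24m libraries by 0.917 of the range of that age, a larger gap than Dixon's test at the 95% level allows for 4 values. It was the only such value among 26 groups of 4 libraries checked for the 7 pump genes and the 6 ratios. Chance alone marks about 1 in 20 groups. Without that library the log2 fold change of Atp1b2 was 0.78 and its call was kept.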

How the results depend on the processing

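Atp2a2, Atp2b1, Atp2b2, Atp2b3 and Atp2b4 kept their direction and call in all the fits run. Atp1b1 reached the fold threshold with library totals (0.65) and after quantile normalization with DESeq2 (0.79). Atp1b2 lost it with the length trend removed, without the replicate block (0.52) and together with it (0.51). Without each library in turn, Atp1b1 ranged from 0.35 to 0.50, Atp1b2 from 0.67 to 0.78 and the Atp1b2 to Atp1b1 ratio from 0.19 to 0.34. The causes were not tested. Library totals moved the median of all genes to 0.21 and calls to 5449 higher and 1746 lower (75.7% higher, against 58.1%, with 3058 lower), and quantile normalization gave 47.9% higher. Same-numbered libraries did not deviate together (correlations of 0.27, 0.14, 0.078 and -0.35). Differently numbered libraries reached 0.38 (6m replicate 4 with 24m replicate 1) and -0.40 (6m replicate 2 with 24m replicate 1). The labels state no pairing, and whether same-numbered libraries were handled together was not tested. With the replicate number as a block the log2 fold changes were 0.43 (Atp1b1), 0.69 (Atp1b2), 1.16 (Atp2a2), -1.20 (Atp2b1), 2.13 (Atp2b2), 1.49 (Atp2b3) and 3.25 (Atp2b4) and no call of a pump gene changed. Atp2b4 at 6m rested on the fewest counts of the pump genes, 300 to 623 per library.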

Other observations

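Pumps of the same superfamily that carry other cargo were also measured. Of 23 tested P-type ATPase genes outside the sodium and calcium pumps, 8 were called higher and 2 lower at 24m (median log2 fold change 0.34, beside -0.0034 over all genes), a share called close to the 43.6% of all genes tested. The highest was Atp8a1, a flippase that moves phospholipids to the inner leaflet of membranes, from 5.84 ± 1.16 to 41.2 ± 21.4 CPM (2.82 ± 0.37, adjusted p = 0.000237). Its 24m libraries gave 16.3, 37.9, 42.4 and 68.4 CPM in replicate order. The lowest was Atp8b3, also of the phospholipid flippases, from 2.00 ± 0.25 to 0.91 ± 0.31 CPM (-1.12 ± 0.23, adjusted p = 0.00235). The ages did not overlap in either gene.

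Among markers of other cells of the brain, 0 of 7 oligodendrocyte markers were called by edgeR, with 0 at an unadjusted p under 0.05 and 0 called by DESeq2 or limma-voom. They ranged from Opalin (-0.45 ± 0.23, adjusted p = 0.117) to Cnp, a myelin enzyme (0.18 ± 0.11, adjusted p = 0.19). The counts of the lists that follow stand against 25.3% of all genes called higher and 18.3% lower, and are of few genes each. Of 7 microglia markers 2 rose, from Aif1 (-0.34 ± 0.17, adjusted p = 0.104) to the chemokine receptor gene Cx3cr1 (1.72 ± 0.17, adjusted p = 6.92e-05). Of 6 endothelial markers 1 rose (Flt1, 1.24 ± 0.32, adjusted p = 0.00753) and 1 fell (Cldn5, a tight junction protein, -1.06 ± 0.16, adjusted p = 0.000459). Of 3 smooth muscle markers 2 fell, from Tagln (-0.93 ± 0.20, adjusted p = 0.00297) to Myh11 (-0.44 ± 0.27, adjusted p = 0.185). Of 5 choroid plexus markers 2 rose, from Folr1 (-0.85 ± 0.34, adjusted p = 0.0524) to Kl (1.53 ± 0.14, adjusted p = 5.15e-05). Folr1 was called lower with DESeq2-style size factors (-0.86, adjusted p = 0.0494), by DESeq2 (-0.86, adjusted p = 0.0208), by limma-voom (-0.96, adjusted p = 0.0325) and after quantile normalization with DESeq2 (-1.02, adjusted p = 0.0115). It was also called lower under the replicate number as a block (-0.97), with the length trend (-1.01) or the GC trend (-0.96) removed, and without 24m replicate 1 (-1.25, adjusted p = 0.00106). Opalin was called lower without that library (-0.74, adjusted p = 0.000623) and with the block and the removal of the length trend together (-0.65). Quantile normalization with DESeq2 also gave calls for Aif1 (-0.62, adjusted p = 0.0119) and Myh11 (-0.81, adjusted p = 0.00299), and Myh11 was called lower with the length trend removed (-0.70). After removal of the length trend Cldn5 was at -0.40 and Tagln at -0.46, both under the fold threshold.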
